A study of Rattus norvegicus with 24 samples.

Results

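The complement genes C1qa, C1qb, C1qc, C1s, C4a, C4b, C3, Cfb and Serping1 were taken by symbol, 9 of 20318 features, from a table of normalised counts of the hippocampus of female rats. All 9 averaged 10 normalised counts or more over the 24 libraries and so were among the 16119 features tested. The study sequenced hippocampal RNA of rats aged 6 months at the start, ovariectomised or not, with estradiol (E2) started early, started late or withheld. Counts are not scaled to transcript length, so levels are compared between libraries. A ratio of the counts of 2 genes is given only to follow it across libraries and is not a ratio of transcripts.

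The Prevention group was ovariectomised and received E2 for 5 weeks (n = 5). The Treatment group was ovariectomised, received vehicle for 3 weeks and then E2 for 2 weeks (n = 5, replicates 1, 2, 5, 6 and 7). The OVX group was ovariectomised and received vehicle for 7 weeks (n = 7). The SHAM group, also aged 6 months and with no ovary removal in its labels, received vehicle for 7 weeks (n = 7). The labels give 7 weeks to both vehicle groups and 5 weeks in all to both E2 groups, so E2 and length of treatment cannot be told apart in a comparison across that line. The labels give no E2 dose and do not say that each library is a separate animal, so the p-values measure only the spread between these libraries.

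Complement is a cascade of secreted proteins that marks targets for removal. C1q recognises a target and carries the proteases C1r and C1s. C1s cleaves C4 and C2, whose fragments form the enzyme that cleaves C3. Factor B, encoded by Cfb, forms the corresponding enzyme of the alternative pathway, and Serping1 encodes the C1 inhibitor, which blocks C1r and C1s. In the brain C1q is made mainly by microglia, the resident immune cells, and in developing mouse brain C1q and C3 tag synapses that microglia remove.

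Of the 24 libraries, 7 stood apart. In every Prevention library and in Treatment replicates 1 and 2 (the high set), LOC257642 measured 16.8 to 19.7 on the log2 scale. It measured 14.0 to 15.2 in the other 17 libraries (the low set), which hold Treatment replicates 5, 6 and 7 and all OVX and SHAM libraries. The sets were drawn after the values were seen, and the labels name no batch. Prevention and the high set cannot be told apart from OVX or SHAM except through a term for the set, which only the split Treatment group can estimate. Reads estimated from the smallest steps in the values ran from 39.8 to 53.7 M (M for mega) in the high set and from 26.4 to 40.2 M in the low set. Neurons of the hippocampus were present, with Camk2a between 48612 and 80034 and the dentate gyrus gene Prox1 between 2035 and 4180 normalised counts. Ttr, made by the choroid plexus beside the hippocampus, ran from 281 to 136652.

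RefSeq places the genes on 5 chromosomes of the GRCr8 genome. C1qb, C1qc and C1qa lie together at chr5:154402276-154407827, chr5:154410845-154414208 and chr5:154417086-154419933. Cfb, C4a and C4b lie at chr20:3975271-3981138, chr20:4010306-4024707 and chr20:4201979-4216292. C1s is at chr4:159116549-159128736, C3 at chr9:2174412-2201339 and Serping1 at chr3:90249410-90259299. Both C4 genes encode component 4, and RefSeq also gives the name C4b as a synonym of C4a. The upstream stretches of the C4 genes are shown to compare these paralogs before their starts. Of 190 aligned bases 178 were identical (93.7%). The C4b stretch is cut from a window of 250 bases that runs on to chr20:4201978, and the rest of that window is not shown. Capitals mark bases that differ or have no partner in the stretches shown. Both stretches are on the + strand, C4a at chr20:4010107-4010305 and C4b at chr20:4201729-4201922.
C4a: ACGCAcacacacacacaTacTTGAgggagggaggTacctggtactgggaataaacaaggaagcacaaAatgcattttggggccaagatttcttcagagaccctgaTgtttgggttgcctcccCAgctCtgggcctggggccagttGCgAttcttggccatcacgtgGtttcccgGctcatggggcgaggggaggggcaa
C4b: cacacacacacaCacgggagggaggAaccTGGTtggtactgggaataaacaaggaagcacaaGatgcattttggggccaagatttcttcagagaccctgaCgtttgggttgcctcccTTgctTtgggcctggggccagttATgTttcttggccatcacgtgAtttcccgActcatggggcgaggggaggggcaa

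Upstream sequence from RefSeq was at hand for 5 of the 9 genes, C1qa, C1qb, C3, C4a and C4b. Up to 250 bases before each start were searched on both strands for motifs of factors active in microglia, in the interferon response or in E2 signalling. GAGGAA, a core bound by the myeloid factor PU.1, was found before C1qb and C4b, 2 of 5, against 23.3% of 33469 promoters. TTCNNNGAA, the gamma-activated site, was found before C1qa, 1 of 5, against 7.67%. The core of the interferon-stimulated response element, GAAA repeated after 2 free bases (3.41% of promoters), and the full estrogen response element, GGTCA and TGACC 3 bases apart (0.0239%), had no match in these 5 windows. The C1q promoters are shown because C1qa and C1qb varied together across the 17 low-set libraries (Pearson r = 0.82). Over the 7 high-set libraries r was 0.28. Capitals mark TTCNNNGAA in C1qa (chr5:154419934-154420183, - strand) and GAGGAA or its reverse complement in C1qb (chr5:154407828-154408077, - strand).
C1qa: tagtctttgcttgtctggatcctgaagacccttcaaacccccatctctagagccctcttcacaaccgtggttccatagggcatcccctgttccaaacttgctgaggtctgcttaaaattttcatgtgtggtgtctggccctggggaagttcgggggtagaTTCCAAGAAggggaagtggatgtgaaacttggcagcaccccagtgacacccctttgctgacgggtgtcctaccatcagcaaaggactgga
C1qb: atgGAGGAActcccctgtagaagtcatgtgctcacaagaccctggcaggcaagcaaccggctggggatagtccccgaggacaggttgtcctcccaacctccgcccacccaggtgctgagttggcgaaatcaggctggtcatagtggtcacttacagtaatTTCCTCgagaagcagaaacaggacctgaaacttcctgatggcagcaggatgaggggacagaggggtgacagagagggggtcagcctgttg

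Across the groups, 8 of the 9 genes had their lowest mean count in Prevention, which lies wholly in the high set. The highest mean was in OVX for 7 of the 9. Shares of all tested genes with these orders were not computed. Prevention and SHAM nearly tied for C1s (290.6 and 294.0) and Serping1 (275.1 and 280.0). On the log2 scale Prevention minus SHAM was 0.0009 for C1s and 0.02 for Serping1. None of the 9 genes passed the test in any of the 6 comparisons. That test was limma on log2(normalised count + 1), with Benjamini-Hochberg adjustment over all 16119 genes and a threshold of 0.05. Of the 9, those nearest to the threshold were Cfb, C4b and C4a in Prevention against OVX. Bulk tissue was measured, in which fewer cells of a type and less RNA per cell cannot be told apart. The plot of every library shows the levels by group.

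**Figure D1:**
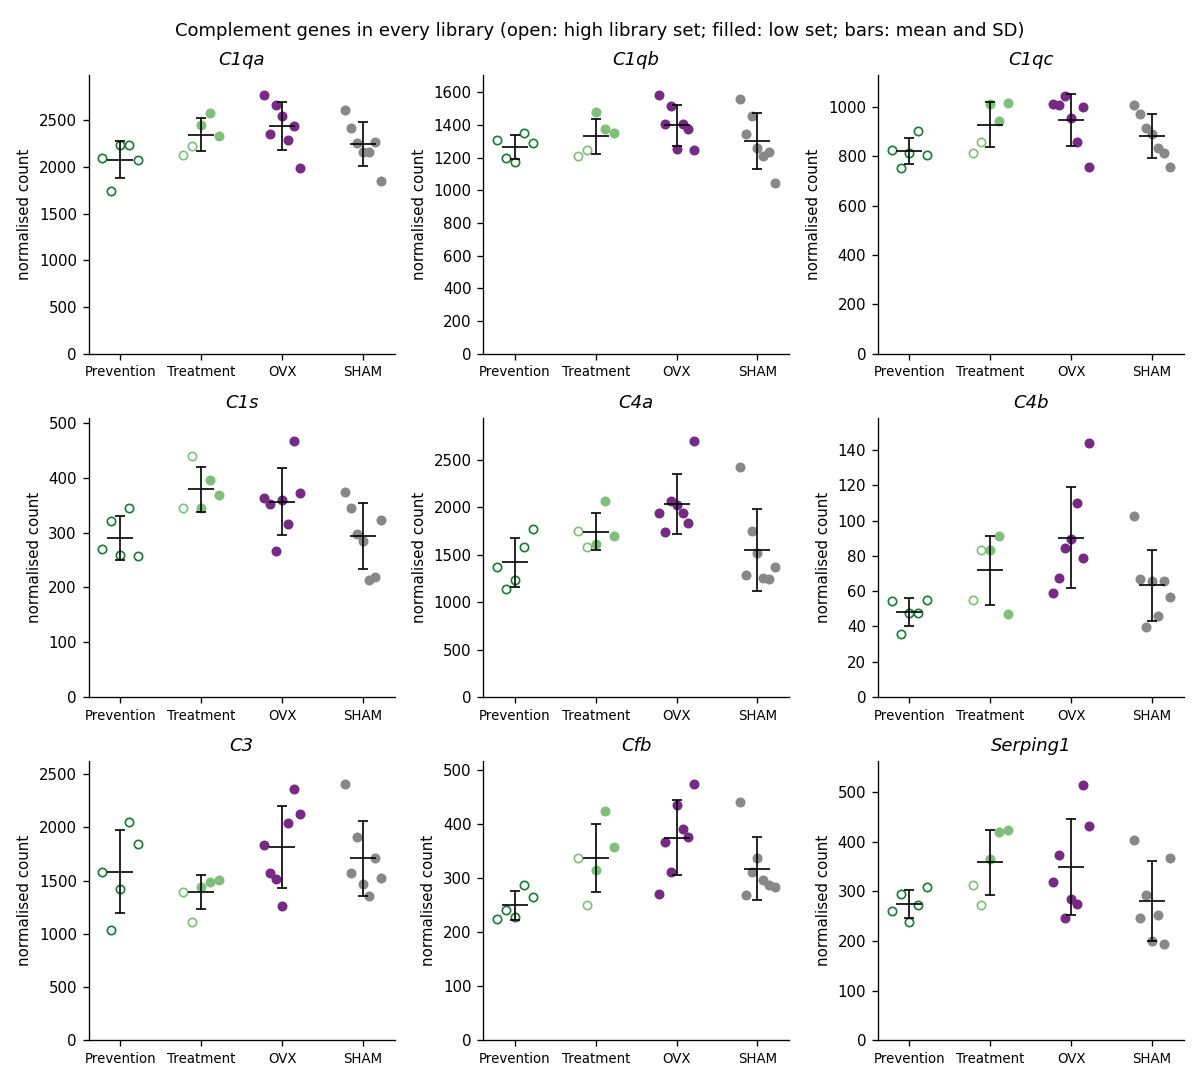
Normalised count of each complement gene (vertical axis, from 0) in every library of the Prevention, Treatment, OVX and SHAM groups, with open circles for the high library set, filled circles for the low set, and bars for the mean and SD. The 5 Prevention libraries of C4b lie between 35.6 and 54.9, below all 7 OVX libraries, while the groups overlap for the other genes.

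C1qa, C1qb and C1qc encode the 3 chains of C1q, and their levels differed little between groups. C1qa measured 2103, 1746, 2241, 2233 and 2073 normalised counts in Prevention libraries, against 1995 to 2769 with a median of 2439 in OVX libraries. All 5 Prevention libraries were below the OVX median and 1 was below every OVX library, so the groups overlapped. The change was -0.23 ± 0.08 (log2, SE) with an adjusted p = 0.138. In Treatment libraries C1qa measured 2133, 2228, 2456, 2577 and 2331, inside the OVX range, and the change from OVX was -0.05 ± 0.08. SHAM libraries ran from 1847 to 2614 with a median of 2256, and 6 of 7 OVX libraries were above that median. The change of OVX from SHAM was 0.12 ± 0.07 (adjusted p = 0.834).

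The other chains gave the same order of means as C1qa, highest in OVX, then Treatment, SHAM and Prevention. C1qb averaged 1265 ± 75.1 in Prevention, 1332 ± 107 in Treatment, 1399 ± 125 in OVX and 1302 ± 171 in SHAM (SD, n = 5, 5, 7 and 7). C1qc averaged 821 ± 53.1 in Prevention, 929 ± 90.9 in Treatment, 948 ± 104 in OVX and 883 ± 88.9 in SHAM. No step in this order passed the test for any chain. Prevention minus OVX was -0.14 for C1qb and -0.20 for C1qc, and OVX minus SHAM was 0.11 and 0.10, each with an interval given in the plot of changes. Over 24 libraries C1qb was 0.583 ± 0.0419 of C1qa (SD), from 0.493 to 0.686. C1qc was 0.393 ± 0.0218 of C1qa, from 0.358 to 0.436. With the library set as a term, Prevention minus OVX was -0.06 for C1qa, and it turned to 0.05 for C1qb and 0.04 for C1qc.

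C1s, the protease that C1q activates, was highest in Treatment. It measured 345, 441, 345, 397 and 369 in Treatment libraries and 270.5, 321, 259.5, 345 and 257 in Prevention libraries. Only 1 of 5 Treatment libraries was within the Prevention range. OVX libraries ran from 267 to 468 with a median of 360.1, and SHAM libraries from 213 to 375 with a median of 297. Of the 5 Treatment libraries, 5 were above the SHAM median and 2 were above every SHAM library. Treatment minus SHAM was 0.39 ± 0.14 (unadjusted p = 0.00868, adjusted p = 0.634), Treatment minus Prevention 0.39 ± 0.15 (adjusted p = 0.789), and OVX minus SHAM 0.29 ± 0.12 (adjusted p = 0.795). Treatment minus Prevention was 0.43 within the high set, from 2 against 5 libraries, where the groups share that set.

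C4a and C4b, the substrate of C1s, were highest in OVX and lowest in Prevention. C4a measured 1372, 1135, 1232, 1587 and 1776 in Prevention libraries, against 1740.1 to 2699 with a median of 1939 in OVX libraries. Of the 5 Prevention libraries, 4 were below every OVX library. The change was -0.53 ± 0.14 (unadjusted p = 0.00109, adjusted p = 0.070), a ratio of means of 0.698. SHAM libraries ran from 1243 to 2432 with a median of 1374, and all 7 OVX libraries were above that median. The change of OVX from SHAM was 0.42 ± 0.13, a ratio of means of 1.31, with the smallest unadjusted p among the 9 genes in that comparison (0.0034, adjusted p = 0.795).

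C4b rested on 30.9 to 137 estimated reads per library, and it varied more than C4a. It measured 54.7, 35.6, 47.7, 47.3 and 54.9 in Prevention libraries, against 59.2 to 144 with a median of 84.2 in OVX libraries. The groups did not overlap, in a comparison where 0.664% of tested genes lay wholly lower. The change was -0.86 ± 0.22 (unadjusted p = 0.000839, adjusted p = 0.0653). SHAM libraries ran from 39.9 to 102 with a median of 65.6, and OVX minus SHAM was 0.51 ± 0.21 (adjusted p = 0.795). C4b was 0.0406 ± 0.00932 of C4a over the 24 libraries. The C4 genes are paralogs whose transcripts were not compared here, and reads of one may have been assigned to the other. The sum of both gave -0.54 for Prevention minus OVX (adjusted p = 0.0652) and 0.42 for OVX minus SHAM.

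In Treatment, C4a measured 1748, 1582, 1619.5, 2069.5 and 1703, and C4b 55.2, 83.05, 83.3, 91.2 and 46.7. Both lay between OVX and SHAM by mean, with C4a at 1744 ± 193 in Treatment, 2036 ± 312 in OVX and 1550.5 ± 429 in SHAM. Treatment minus OVX was -0.22 ± 0.14 for C4a and -0.32 ± 0.22 for C4b, and Treatment minus Prevention was 0.31 ± 0.15 and 0.54 ± 0.24. With the library set as a term, Prevention minus OVX was -0.42 ± 0.27 for C4a and -0.79 ± 0.43 for C4b. The SEs were larger than without the term, and neither gene was near the threshold (adjusted p = 0.999 for both).

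C3, on which the pathways converge, had another order: its mean was lowest in Treatment, at 1389 ± 161, with 1585 ± 389 in Prevention, 1815 ± 388 in OVX and 1708 ± 355 in SHAM. It measured 1389, 1114, 1443, 1489 and 1509.9 in Treatment libraries, against 1262 to 2361 with a median of 1831 in OVX libraries. All 5 Treatment libraries were below the OVX median and 1 was below every OVX library. Treatment minus OVX was -0.36 ± 0.16 (unadjusted p = 0.0326, adjusted p = 0.690), and -0.26 within the low set. Prevention libraries measured 1583, 1039, 1417, 2047 and 1842, across most of the OVX range, and Prevention minus OVX was -0.20 ± 0.16. SHAM libraries ran from 1359 to 2406 with a median of 1576, and OVX minus SHAM was 0.08 ± 0.15 (adjusted p = 0.955).

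Cfb, the factor B gene of the alternative pathway, came nearest to the threshold. It measured 224, 241, 229, 288 and 265 in Prevention libraries, against 271 to 475 with a median of 376 in OVX libraries. Of the 5 Prevention libraries, 4 were below every OVX library, and the highest exceeded only the lowest OVX library. The change was -0.57 ± 0.14, a ratio of means of 0.665 (unadjusted p = 0.00033, adjusted p = 0.0559). Cfb passed without Treatment replicate 1 (adjusted p = 0.0467) and without SHAM replicate 1 (0.0488), the latter also for C4a (0.0477). Those libraries are in neither compared group, so the changes stayed the same. Only the estimate of spread, the genes tested and the adjustment could move. Cfb also passed without OVX replicate 7 (0.0432), where its change was smaller in size (-0.51). Over all alternatives the adjusted p ran from 0.0273 to 0.999 for Cfb and from 0.0477 to 0.999 for C4a. With the library set as a term the change of Cfb was -0.25 ± 0.25 (adjusted p = 0.999).

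In the other groups Cfb measured 338, 251, 316, 425 and 358 in Treatment libraries, and 268 to 442 with a median of 296 in SHAM libraries. Of the 5 Treatment libraries, 4 were above every Prevention library, and Treatment minus Prevention was 0.42 ± 0.15 (unadjusted p = 0.0088, adjusted p = 0.726). Within the high set, with 2 Treatment and 5 Prevention libraries, that change was 0.23. Prevention minus SHAM was -0.34 ± 0.14 (adjusted p = 0.280), and 4 of 5 Prevention libraries were below every SHAM library. With the library set as a term, Prevention minus SHAM was -0.02 ± 0.25 (adjusted p = 0.996). OVX minus SHAM was 0.24 ± 0.12 (adjusted p = 0.806).

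Serping1, the inhibitor of C1r and C1s, ranked its groups as C1s did. It measured 313, 272, 365, 419 and 424 in Treatment libraries and 261, 295, 239, 272 and 309 in Prevention libraries. OVX libraries ran from 247 to 515 with a median of 320.0, and SHAM libraries from 194 to 404 with a median of 253. Of the 5 Treatment libraries, 4 were above every Prevention library and 2 above every SHAM library. Treatment minus SHAM was 0.39 ± 0.18 (adjusted p = 0.810), Treatment minus Prevention 0.37 ± 0.20 (adjusted p = 0.930) and OVX minus SHAM 0.32 ± 0.17 (adjusted p = 0.800). Within the high set Treatment minus Prevention was 0.09, and with the set as a term Prevention minus OVX was 0.15, against -0.31 without it.

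**Figure D2:**
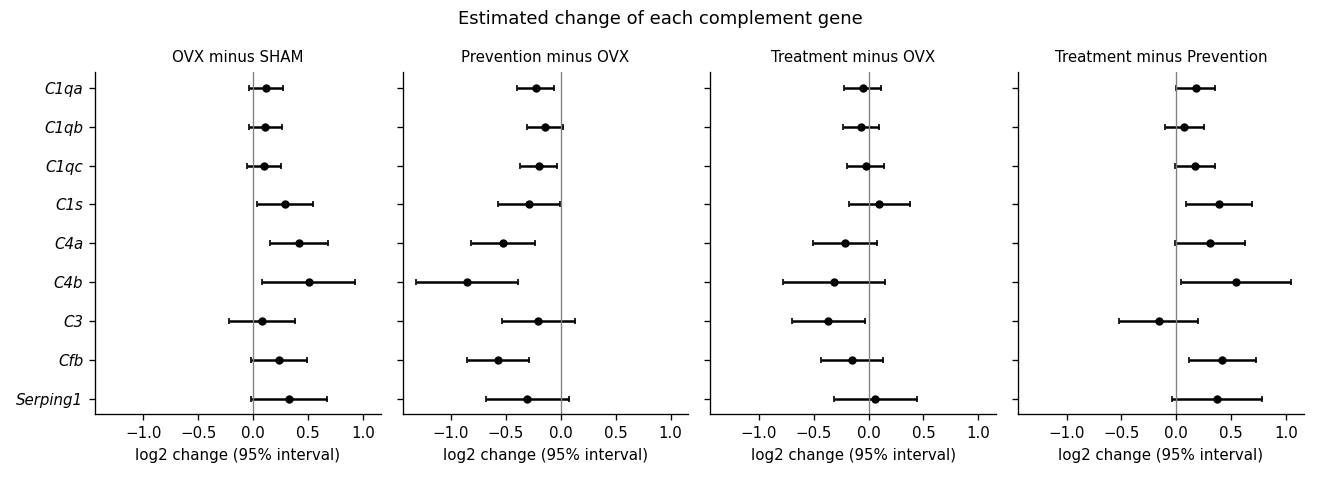
Change of each complement gene on the log2 scale (horizontal axis) in 4 comparisons, with points for the estimate and bars for the 95% interval from limma. All 9 points lie above 0 in OVX minus SHAM (0.08 to 0.51) and below 0 in Prevention minus OVX (-0.86 to -0.14), where the intervals of C4a, C4b and Cfb lie farthest from 0.

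OVX was compared with SHAM inside the low set. Of the 9 genes 0 passed, as did 0% of all tested genes, while 3 were higher at an unadjusted p under 0.05 (C1s, C4a and C4b) against 2.88% of all genes. All 9 had a positive change, against 51.7% of all genes, with a median of 0.24 against 0.00. Microglia markers were higher in 14 of 15, with a median of 0.12 and summed levels of 19601 to 22429 in OVX and 18389 to 22377 in SHAM, and 0 of them passed. Choroid plexus markers were higher in 14 of 14 (median 0.49), with sums of 1253 to 88509 in OVX and 905 to 168589 in SHAM. With the microglia score, the mean log2 level of those markers, as a covariate the changes of the C1q genes were 0.01 to 0.05, C4a 0.20 and C3 -0.23. With the choroid plexus score they were 0.41 for C4a and 0.27 for Serping1.

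Early E2 was compared with vehicle after ovariectomy. Of the 9 genes 0 passed in Prevention against OVX, where 0.304% of all tested genes did (49 genes, but 1 without Prevention replicate 3 and 481 without OVX replicate 7). At an unadjusted p under 0.05, 6 were lower (C1qa, C1qc, C1s, C4a, C4b and Cfb), against 8.56% of all genes. All 9 had a negative change, against 49.7% of all genes, with a median of -0.29 against 0.00. With the library set as a term 5 were negative and 4 positive, and none of the 16119 genes passed (573 had an unadjusted p under 0.05). Microglia markers were lower in 9 of 15, of which Cd68 passed, with sums of 20197 to 23250 in Prevention and 19601 to 22429 in OVX. Choroid plexus markers were higher in 12 of 14 (median 0.48), with sums of 1601 to 85858 in Prevention and 1253 to 88509 in OVX. With their score as a covariate the change was -0.59 for Cfb, -0.54 for C4a and -0.35 for Serping1. Fibroblast and meninges markers were lower in 8 of 10 (median -0.17), with sums of 5706 to 11016 in Prevention and 5090.2 to 12575 in OVX. With that score as a covariate, chosen after seeing the data, Serping1 was at -0.22 and Cfb at -0.54. Markers of thalamus, which borders the hippocampus, were higher in 10 of 12 (median 0.38), with sums of 8508 to 23968 in Prevention and 7523 to 19939 in OVX, and their part in the result was not tested.

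Late E2 was compared with vehicle after ovariectomy. In Treatment against OVX 0 of 9 passed, as did 0% of all genes, and C3 alone was lower at an unadjusted p under 0.05 (3.09% of all genes). The change was negative for 7 of 9, against 50.6% of all genes, and for 4 of 9 within the low set. Choroid plexus markers were lower in 14 of 14 (median -0.84), with sums of 823 to 86746 in Treatment and 1253 to 88509 in OVX. With their score as a covariate C3 was at -0.33. Oligodendrocyte markers were lower in 9 of 10 (median -0.18), with sums of 256807 to 422057 in Treatment and 287590.0 to 495207 in OVX, and their part in the result was not tested.

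Late E2 was compared with early E2 in Treatment against Prevention, where 0 of 9 passed (0% of all genes), and 3 were higher at an unadjusted p under 0.05, C1s, C4b and Cfb, against 2.76% of all genes. The change was positive for 8 of 9, against 48.9% of all genes, and for 7 of 9 within the high set. Choroid plexus markers were lower in 13 of 14 (median -1.45), thalamus markers lower in 11 of 12 (median -0.39) and fibroblast and meninges markers higher in 8 of 10 (median 0.30), and with a score as covariate Serping1 was at 0.50 and 0.24 by the choroid plexus and the fibroblast and meninges score. The part of the thalamus markers was not tested.

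The E2 groups were also set beside SHAM. Of the 9 genes 0 passed in Prevention against SHAM (0.354% of all genes) and 0 in Treatment against SHAM (0.0062%). At an unadjusted p under 0.05, Cfb was lower in Prevention (5.85% of all genes), and C1s and Serping1 were higher in Treatment (3.29%). In Prevention against SHAM choroid plexus markers were higher in 13 of 14 (median 1.11), thalamus markers higher in 11 of 12 (median 0.54) and interferon-induced genes lower in 21 of 28 (median -0.07), with thalamus sums of 8508 to 23968 in Prevention and 7793 to 25348 in SHAM. Cfb was at -0.38 with the choroid plexus score and at -0.23 with the interferon score as a covariate. It was at -0.02 with the library set as a term. The part of the thalamus markers was not tested. In Treatment against SHAM fibroblast and meninges markers were higher in 9 of 10 (median 0.16) and interferon-induced genes in 25 of 28 (median 0.13), while choroid plexus markers were lower in 12 of 14 (median -0.39) and oligodendrocyte markers in 10 of 10 (median -0.20). With the fibroblast and meninges score C1s was at 0.35 and Serping1 at 0.30, and with the interferon score they were at 0.34 and 0.30. With the choroid plexus score C1s was at 0.41 and Serping1 at 0.42. With the library set as a term they were at 0.36 and 0.57. The part of the oligodendrocyte markers was not tested. Comparisons that share the OVX, SHAM or Prevention libraries are not independent of each other.

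The other complement genes gave no call either. Of a list of 58 complement genes 54 were in the table and 41 were tested, 32 of them beside the 9. Of these 32, 0 passed in each of the 6 comparisons. At an unadjusted p under 0.05, counts of higher and lower genes were 0 and 1 in OVX minus SHAM (2.88% and 3.37% of all genes), 2 and 1 in Prevention minus OVX (10.1% and 8.56%), and 1 and 1 in Treatment minus OVX (4.1% and 3.09%). They were 0 and 1 in Treatment minus Prevention (2.76% and 2.62%), 1 and 2 in Prevention minus SHAM (7.42% and 5.85%), and 0 and 1 in Treatment minus SHAM (3.29% and 2.8%). The terminal components C5, C6, C8a and C8b and the lectins Mbl1 and Mbl2 had means below 10 and were not tested, while C7, C8g and C9 were.

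Receptors and regulators gave the smallest p-values among those 32. Itgam, the alpha chain of complement receptor 3, with which microglia bind C3 fragments, averaged 563 ± 131 in Treatment, against 776 ± 126 in OVX. The change was -0.48 ± 0.13 (adjusted p = 0.602). In the same comparison Csmd1, a membrane regulator of complement, averaged 2895 ± 418 in Treatment and 2420.3 ± 305 in OVX (0.26, adjusted p = 0.619). In Prevention against OVX the C3a receptor gene C3ar1 averaged 62.6 ± 6.55 and 48.3 ± 16.04 (0.43, adjusted p = 0.205). Properdin, encoded by Cfp and a stabiliser of the alternative convertase, averaged 557 ± 38.9 in Prevention and 648 ± 79.4 in OVX (-0.21, adjusted p = 0.1996). Lrp1, an endocytic receptor, was at 0.20 (adjusted p = 0.191). In OVX against SHAM Csmd2 had the smallest p, with 2316 ± 295 in OVX and 2742 ± 204 in SHAM (-0.25, adjusted p = 0.795). Beside it stood Csmd1 (-0.14) and C1r, the protease partner of C1s (0.22). After Itgam and Csmd1, Treatment minus OVX gave C3ar1 (0.27). Treatment minus Prevention gave Itgam (-0.36, adjusted p = 0.793), Cfp (0.20) and C2 (0.21). Prevention minus SHAM gave C3ar1 (0.41, adjusted p = 0.333), C8g (-0.22) and Cfp (-0.18). Treatment minus SHAM gave Itgam (-0.33, adjusted p = 0.709), Cr1l (0.11) and Colec12 (0.32).

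Levels of some of the 9 genes varied together across libraries, in 3 blocks. Pearson correlations of log2 levels were computed over the 17 low-set libraries, 36 pairs with permutation p-values adjusted over them, and 7 pairs had an adjusted p under 0.05 by r and also by rho. Adjusted p-values beside r and rho are those of r. Within C1q, r was 0.85 for C1qa and C1qc (Spearman's rho 0.80, adjusted p = 0.00108), 0.82 for C1qa and C1qb (rho 0.73, adjusted p = 0.00153) and 0.78 for C1qb and C1qc (rho 0.75, adjusted p = 0.00153). Without the 2 libraries farthest from the median these were 0.71, 0.68 and 0.69. C1s and Serping1 gave r = 0.81 (rho 0.86, adjusted p = 0.00108; 0.82 without the 2 farthest). Those libraries span 3 groups, so differences between groups enter these values.

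The third block held the genes on chromosome 20. C4a and Cfb gave r = 0.78 (rho 0.72, adjusted p = 0.00187 by permutation; 0.70 without the 2 farthest), C4b and Cfb 0.69 (rho 0.74, adjusted p = 0.0112; 0.63) and C4a and C4b 0.68 (rho 0.70, adjusted p = 0.0135; 0.60). Between blocks r ran from -0.07 to 0.47 for C1q with C4 and Cfb, from 0.04 to 0.39 for C1q with C1s and Serping1, and from 0.25 to 0.57 for C4 and Cfb with C1s and Serping1. C3 stood apart, with r from -0.04 to 0.48 to every other gene. C1s and C4a, of different blocks, passed by rho only (0.62, adjusted p = 0.0451). In the 7 high-set libraries 0 of 36 pairs had an adjusted p under 0.05 (smallest 0.675).

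The genes were then set beside scores of other gene lists. The interferon score, the mean log2 level of 28 interferon-induced genes that include none of the 9, gave r = 0.94 with Cfb over the 17 low-set libraries (rho 0.93, adjusted p = 0.00045 by permutation, from 1e-05, the smallest p 100000 permutations can give). Without the 2 farthest libraries r was 0.91. The same score gave 0.83 with C4a (rho 0.81, adjusted p = 0.000675) and 0.82 with C4b (rho 0.77, adjusted p = 0.0009), and 0.79 and 0.76 without the 2 farthest, but 0.01 to 0.16 with the C1q genes. In all, 45 relations of a gene and a score were computed per set, and 9 had an adjusted p under 0.05 in the low set.

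The microglia score gave r = 0.73 with C4a (rho 0.62, adjusted p = 0.0101), 0.69 with C3 (rho 0.56, adjusted p = 0.0148), 0.66 with C4b (rho 0.65, adjusted p = 0.0231) and 0.64 with C1qb (rho 0.52, adjusted p = 0.0283). Without the 2 farthest libraries these were 0.76, 0.66, 0.71 and 0.52. By rho the adjusted p was 0.052 for C4a, 0.0925 for C3, 0.0341 for C4b and 0.109 for C1qb, so of these the relation with C4b alone passed by rank, while that with C1s passed by rank only (rho 0.67, adjusted p = 0.0278, against r = 0.58, adjusted p = 0.0702). Serping1 gave 0.76 with the fibroblast and meninges score (rho 0.77, adjusted p = 0.00664) and 0.71 with the choroid plexus score (rho 0.74, adjusted p = 0.0115), and 0.75 and 0.72 without the 2 farthest, and both passed by rank. In the 7 high-set libraries 1 of 45 relations had an adjusted p under 0.05, C1qb with the fibroblast and meninges score (r = 0.97, rho 0.93, adjusted p = 0.0355 by permutation; 0.93 without the 2 farthest), and by rho its adjusted p was 0.283. There the interferon score gave r = 0.71 with Cfb (rho 0.18, adjusted p = 0.574 by permutation) and -0.73 without the 2 farthest, so that relation rested on those libraries.

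**Figure D3:**
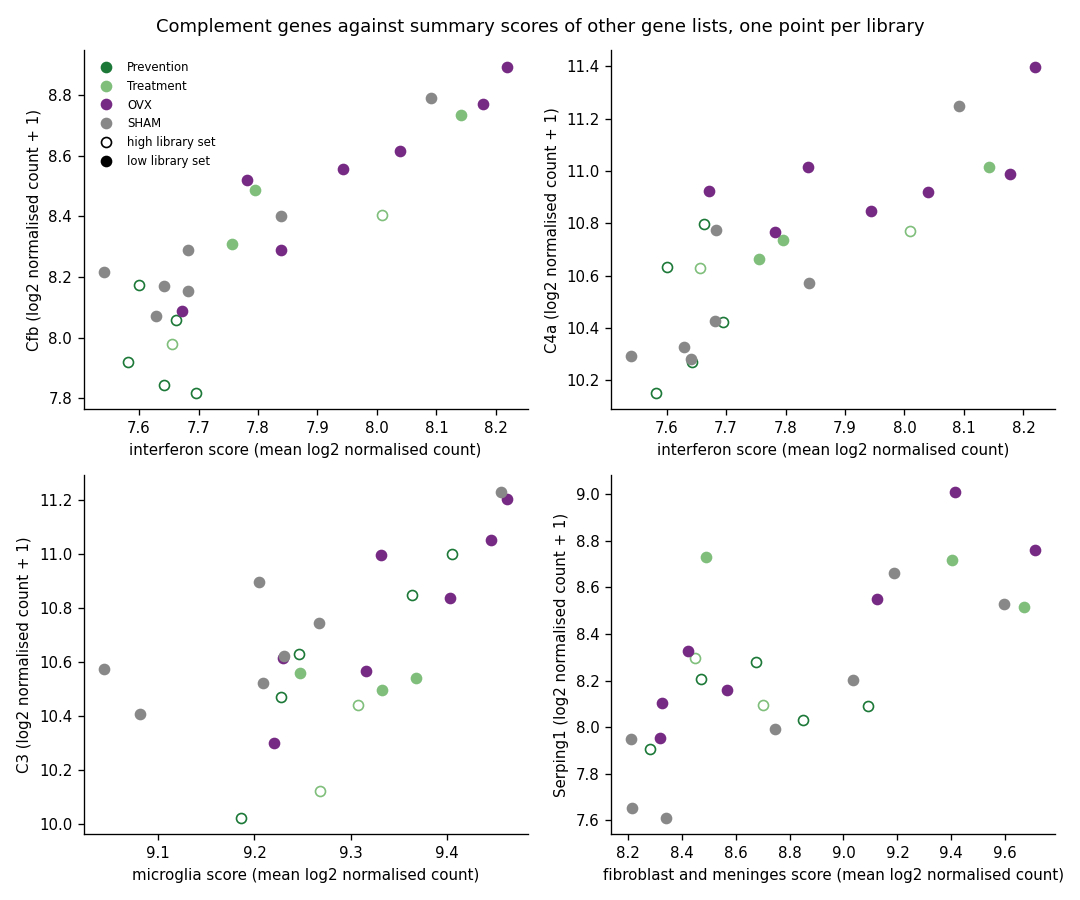
Level of Cfb, C4a, C3 and Serping1 (vertical axes, log2 of normalised count + 1) against the interferon, microglia or fibroblast and meninges score (horizontal axes, mean log2 level of the list), one point per library, coloured by group and open for the high set. Cfb follows the interferon score most closely (r = 0.94 over the 17 filled points), and the open Prevention points sit at its low end.

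The interferon genes had their highest mean in OVX and their lowest in Prevention, as did the C1q genes, C4a, C4b and Cfb. Their score averaged 7.64 ± 0.05 in Prevention, 7.87 ± 0.20 in Treatment, 7.95 ± 0.20 in OVX and 7.73 ± 0.18 in SHAM (log2, SD). In Prevention against OVX 26 of 28 were lower (median -0.26), in OVX against SHAM 26 of 28 were higher (median 0.18), and in Treatment against Prevention 26 of 28 were higher (median 0.21), with 0 passing in each. With this score as a covariate, chosen after seeing the data, Prevention minus OVX was -0.20 for Cfb, -0.20 for C4a and -0.41 for C4b, against -0.57, -0.53 and -0.86 without it. OVX minus SHAM was then -0.03 for Cfb, 0.19 for C4a and 0.19 for C4b, and 0.12 to 0.13 for the C1q genes. Treatment minus Prevention was 0.14 for Cfb, 0.07 for C4a and 0.21 for C4b, against 0.42, 0.31 and 0.54 without the score. These fits use the same slope on the score for every library. Prevention lies wholly in the high set, where rho with the score was 0.18 for Cfb, 0.57 for C4a and 0.75 for C4b (n = 7). Without the 2 farthest libraries r there was -0.73, -0.15 and 0.34. Whether the slope holds in the high set was not tested.

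**Figure D4:**
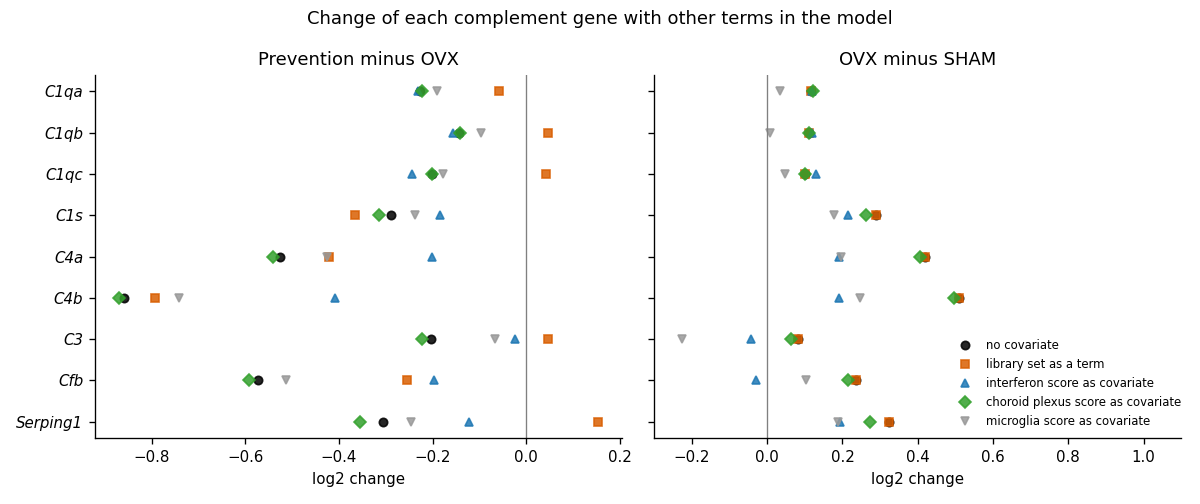
Change of each complement gene on the log2 scale (horizontal axis) in Prevention minus OVX and in OVX minus SHAM, with no covariate (black circles), with the library set as a term (orange squares), and with the interferon (blue triangles), choroid plexus (green diamonds) or microglia (grey triangles) score. In Prevention minus OVX the interferon score moves C4a, C4b and Cfb nearest to 0 (-0.20, -0.41 and -0.20), and the set term moves C1qb, C1qc, C3 and Serping1 above 0 (0.04 to 0.15).

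The genes of most similar pattern were taken as the 3 with the highest r over all 24 libraries among 13602 genes with a mean of at least 50. For Cfb these were Usp18 (0.87), Isg15 (0.87) and Rtp4 (0.83), all interferon-induced and all in the interferon list. For C4a they were Cfb (0.79), Dhx58 (0.76) and Usp18 (0.76). For C4b they were the interferon-response regulator gene Irf7 (0.85), RT1-T24-4 (0.80) and Dhx58 (0.78). For C3 they were Csf2rb (0.81), a cytokine receptor subunit, the myeloid transcription factor gene Irf8 (0.79) and Pld4 (0.75). C1s was nearest to C1r (0.82), Serping1 (0.70) and Smim3 (0.70). Serping1 was nearest to the ceruloplasmin gene Cp (0.83), Aebp1 (0.82) and RGD1305645 (0.82). C1qa and C1qc were each other's nearest gene (0.87), and C1qb was nearest to Asna1 (0.82), the ribosomal protein gene Rpl36 (0.81) and C1qc (0.80). Over the low set alone the first gene of each kept an r of 0.78 to 0.87, the range from C4a with Cfb to Cfb with Usp18.

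Libraries within a group varied more for some of the 9 than for others. The SD within groups on the log2 scale was 0.15 for C1qa and 0.14 for C1qb and C1qc, near the median of tested genes (0.15). It was 0.24 for C1s and Cfb, 0.26 for C4a, 0.30 for C3, 0.34 for Serping1 and 0.40 for C4b, at the 71.4th to 86.5th percentile of tested genes.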

How the data were processed

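RNA of hippocampus was sequenced in 24 libraries, and groups and replicate numbers follow the labels. The deposited values are normalised counts, a signal per gene that the authors made with kallisto 0.43 and DESeq2 (no version), per the submitters' processing notes. The sources used here give no genome build, annotation, filter or batch. Column totals were 35.4 to 38.8 M (M for mega). Low values peaked at multiples of the value of 1 read, which gave estimated depth, but only 40.2 to 83.6% of low values came within 0.05 of whole reads, so no count test was run and precision rests on the spread between libraries.

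The test was limma 3.58.1 (R 4.3.3) on log2(normalised count + 1), for 16119 of 20318 features averaging 10 or more. One fit held all 24 libraries, with a mean per group, a mean-variance trend and 6 comparisons, with Benjamini-Hochberg adjustment at 0.05. Adding 1 understates changes of low genes. The fit was tested on simulated data. Correlations used log2 values and 100000 permutations, two-sided. A score is the mean log2 level of a list. Positions and upstream sequences are from RefSeq (GRCr8), matched by symbol for 9 of 9 genes. Python 3.11.15 with matplotlib 3.10.9 drew the figures.

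The genes and lists were chosen with earlier results of these data known. Named were the 9 genes in every comparison, of the other complement genes those passing or else the 3 with the smallest p and a mean of at least 50, and per gene the 3 of most similar pattern. Genes of the list not in the table (C1ra, Cd59b, Csmd3, Cd93) were not analysed here. Alternatives left out each library in turn, summed C4a and C4b, used the library set as a term or each set alone, took the choroid plexus or microglia score as a covariate, or used a replicate block. Others changed the pseudocount (0.5 or 8), the filter (none, or a mean of 100), the scaling (upper quartile or quantile), the weights of libraries, the empirical Bayes step (robust) or the groups in the fit (the compared pair alone). The interferon, fibroblast and meninges, and astrocyte scores as covariates were added after seeing the data.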

Additional observations from a re-analysis of the deposited data

Results flagged for a closer look

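Among 36 groups of libraries, each of the 9 genes in each of the 4 groups, 3 held a library whose gap to its nearest neighbour was large for the range of its group by Dixon's test, which chance gives in about 1 group in 20. C4a measured 2699 in OVX replicate 7, with the next OVX library at 2066, a gap of 0.660 of the range. C4a measured 2432 in SHAM replicate 1, with the next SHAM library at 1749, a gap of 0.575 of the range. Cfb measured 442 in the same SHAM library, with the next at 337, a gap of 0.604 of the range. OVX replicate 7 also had the highest OVX values of C4b (144) and Cfb (475) and the lowest of C1qa (1995), and SHAM replicate 1 the highest SHAM value of all 9 genes. OVX minus SHAM for C4a was 0.42 on the log2 scale, 0.35 without OVX replicate 7 and 0.53 without SHAM replicate 1, and for Cfb it was 0.24, 0.18 and 0.32.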

How the results depend on the processing

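Alternatives gave 2196 recomputed values of single genes or their changes. Of these, 2134 kept their direction and their side of the threshold, 8 passed where they had not, and 54 changed sign. Leaving out 1 library gave 1296 of them, and where it lay outside the compared groups the estimate could not move. The 900 from other settings gave 860, 4 and 36. None of the 9 genes passed in the main fit, so none could lose a call. In Prevention minus OVX the count of the 9 genes that passed was 1 with a mean of at least 100, 1 with quantile normalisation and 2 with the choroid plexus score, against 0, and the count over the complement list was 1, 1 and 3. Leaving out a library gave 0 to 2 for both. The adjusted p of Cfb was 0.0473, 0.0450 and 0.0273 under those settings, and that of C4a 0.0488 with the choroid plexus score. Over all genes that comparison had 49 calls, 1 without Prevention replicate 3, 481 without OVX replicate 7, 262 with the choroid plexus score, 97 with a mean of at least 100, 92 with the astrocyte score, 11 with the microglia score, 5 for the pair alone and 0 with the set term. Prevention minus SHAM had 57, against 156 alone, 424 with weights and 0 with the set term.

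Sign changes with the set term were, in Prevention minus OVX, 0.0469 for C1qb, 0.0427 for C1qc, 0.0474 for C3 and 0.15 for Serping1. In Prevention minus SHAM they were 0.0591 for C1qa, 0.16 for C1qb, 0.14 for C1qc, 0.13 for C3 and -0.0765 for C1s. In Treatment minus OVX, with the set term or within the low set, they were 0.0162 for C1qa, 0.00578 for C1qb and 0.0706 for C1qc, and in Treatment minus Prevention, with the set term or within the high set, -0.0411 for C1qb. In Prevention minus SHAM, C1s was -0.0107 with quantile normalisation, -0.00465 with upper quartile rescaling, -0.0737 with weights, -0.0500 with the choroid plexus, -0.0614 with the microglia and -0.0174 with the astrocyte score, and Serping1 -0.0819, -0.0564 and -0.00212 with those scores. C1qc in Treatment minus OVX was 0.0307 with weights. OVX minus SHAM was -0.23 for C3 with the microglia score, -0.0441 for C3 and -0.0293 for Cfb with the interferon score. Treatment minus SHAM was -0.0324 for C1qb and -0.00813 for Cfb with the microglia score, and -0.0837 for Cfb and -0.00930 for C4b with the interferon score. The cause was not tested.

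With 1 library left out, signs changed in these ranges: in Prevention minus SHAM, C1s -0.0714 to 0.0638, Serping1 -0.0614 to 0.114, C3 -0.223 to 0.0213, C1qb -0.0843 to 0.0123 and C4a -0.191 to 0.00931; in Treatment minus OVX, Serping1 -0.0139 to 0.163 and C1qc -0.0800 to 0.0195; and in Treatment minus SHAM, Cfb -0.00351 to 0.185 and C1qb -0.0115 to 0.0852. The replicate block gave 0.00194 for C1qc and -0.0342 for Serping1 in Treatment minus OVX, and 3 calls over all genes in Prevention minus OVX and 4 in Prevention minus SHAM; it changed no call among the 9. The numbers did not pair the libraries: of 30 same-numbered pairs 8 had r over 0.1 (median -0.124, other pairs 0.0352). Scalings left the median change of all genes between -0.0123 and 0.00970. No fit within a set was possible for Prevention against OVX or SHAM. C4b, with few reads, is the least precise.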

Other observations

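The ratio of C4a to C3 averaged 1.26 ± 0.140 in Treatment, against 0.914 ± 0.120 in Prevention (SD, n = 5 each), and 1.16 ± 0.276 in OVX, against 0.903 ± 0.107 in SHAM (SD, n = 7 each). It ran from 1.12 to 1.42 in Treatment and from 0.775 to 1.09 in Prevention. The ratio of Cfb to C3 averaged 0.242 ± 0.0260 in Treatment and 0.164 ± 0.0391 in Prevention. Both ratios were picked after their values were seen, and no test was run on them.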
